A study of Mus musculus with 30 samples.

Results

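The genes of glucagon (Gcg), somatostatin (Sst), pancreatic polypeptide (Ppy) and peptide YY (Pyy) were followed through the days in which the dorsal pancreas of the mouse forms its acinar, ductal and endocrine cells. They were chosen by gene symbol in the platform annotation of the chips, and the rule itself uses no measured value. All 4 genes were on the chips, 4 of 15964 named genes, with 6 of 36701 probe sets. Gcg and Ppy had 2 probe sets each, and Sst and Pyy had 1 each. Tissue came from embryos of time-mated NMRI mice, an outbred strain, with no treatment or engineered allele given in the labels, at embryonic day 12.5 (e12.5), e13.5, e14.5, e15.5 and e16.5. Dorsal buds of a litter were pooled, the ventral bud was not taken, and RNA of each stage's pool was labelled with biotin in 2 separate reactions. How many litters and embryos made up a pool is not given in the labels. Chips A, B and C of Affymetrix's MG-U74 set, version 2, were each run with every labelled sample, for 30 arrays in all and 10 per chip.

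On each chip the arrays of a stage come from 1 pool, and their spread is that of labelling and hybridisation. Stage and pool therefore cannot be told apart. In log2 units, the medians of the arrays were 5.71 to 5.76 for chip A, 5.26 to 5.31 for chip B and 3.99 to 4.02 for chip C. The largest difference between reactions of a pool over all probe sets was 0.88 in log2 units. Without detection calls the background is not known, and dim levels are given beside the median of the chip. Cpa1, which marks the early pancreas and later the acinar cells, was at 10.75 at e12.5 and at 13.31 at e16.5, and the pancreas factor Pdx1 lay between 5.50 and 6.21, around the median of its chip. Since whole buds were used, the values are relative to all RNA of the bud. Changes in cell number, in RNA per cell and in the share of other cells cannot be told apart.

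In the islet each of these hormones marks a cell type of its own: glucagon the alpha cell, somatostatin the delta cell and pancreatic polypeptide the PP cell, while peptide YY is made by several early endocrine cells and by L cells of the gut. Glucagon raises blood glucose through its receptor on hepatocytes. Somatostatin restrains the release of other hormones, and the PP-fold peptides act through the receptors of neuropeptide Y. All 4 are made as longer prohormones that the convertases Pcsk1 and Pcsk2 and the carboxypeptidase Cpe trim. Glucagon cells are known to be the earliest endocrine cells of the bud, before the large wave of beta cells.

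On GRCm38.p6, the build of the RefSeq annotation, Gcg lies on chromosome 2, 62474530 to 62483653, and Sst on chromosome 16, 23889573 to 23891342. Ppy (chromosome 11, 102099931 to 102101319) and Pyy (chromosome 11, 102106676 to 102107832) are neighbours on the minus strand with 5356 bases between them. The 250 bases before each gene's start in RefSeq are shown because these neighbours and the other pair moved in opposite directions, as described further on. The windows are chr2:62483654-62483903 for Gcg, chr16:23890845-23891094 for Sst, chr11:102101320-102101569 for Ppy and chr11:102107833-102108082 for Pyy, all on the minus strand. Sst has a longer gene model that reaches past this window, and Pyy has a second start 56 bases downstream in the table. Capitals mark matches on either strand to TATAAA (the TATA box), TGACGTCA (the cAMP response element) and CAGATG (an E-box that Neurod1 and Neurog3 can bind), and no 2 matches overlapped.
Gcg: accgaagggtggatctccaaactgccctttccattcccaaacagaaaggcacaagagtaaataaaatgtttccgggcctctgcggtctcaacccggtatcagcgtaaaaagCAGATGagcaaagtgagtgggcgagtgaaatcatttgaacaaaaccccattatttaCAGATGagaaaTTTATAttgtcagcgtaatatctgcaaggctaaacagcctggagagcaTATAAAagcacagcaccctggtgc
Sst: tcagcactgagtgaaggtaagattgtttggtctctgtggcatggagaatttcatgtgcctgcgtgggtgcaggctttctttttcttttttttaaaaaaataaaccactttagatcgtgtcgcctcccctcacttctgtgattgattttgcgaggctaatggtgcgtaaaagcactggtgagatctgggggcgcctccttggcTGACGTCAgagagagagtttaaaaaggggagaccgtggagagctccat
Ppy: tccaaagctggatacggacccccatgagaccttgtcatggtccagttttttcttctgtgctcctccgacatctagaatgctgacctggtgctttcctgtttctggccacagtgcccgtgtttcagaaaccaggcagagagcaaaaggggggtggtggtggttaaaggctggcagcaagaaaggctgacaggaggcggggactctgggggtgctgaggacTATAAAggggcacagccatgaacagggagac
Pyy: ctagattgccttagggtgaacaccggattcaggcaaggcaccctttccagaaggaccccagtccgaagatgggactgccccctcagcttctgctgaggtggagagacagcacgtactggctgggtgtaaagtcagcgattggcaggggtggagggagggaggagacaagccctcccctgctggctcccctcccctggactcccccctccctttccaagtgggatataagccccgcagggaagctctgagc
The window of Gcg held 2 matches to CAGATG, which start 139 and 83 bases before the gene's start, and 1 match to TATAAA in the direction of the gene, 24 bases before it. A further match to TATAAA lay on the opposite strand, 72 bases before the start. Of all 32851 promoter windows of this length in the table, 14.4% held CAGATG and 12.4% held TATAAA. The window of Sst held the only match to TGACGTCA among the 4 genes, 48 bases before the start, and 1.55% of all windows held one. Ppy had TATAAA 31 bases before its start, and neither start of Pyy had an exact match to any of these motifs. Only exact letters were sought, so near variants, such as tataag in the window of Pyy, are not marked. A match describes letters only, and binding was not measured.

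In a line fitted over embryonic day to the 5 pool means, Sst and both probe sets of Ppy rose, and both probe sets of Gcg and the probe set of Pyy fell (limma, Benjamini-Hochberg adjusted p under 0.05 over the probe sets of all chips). That is 3 rises and 3 falls among 6 probe sets, where 10.6% of all probe sets rose and 13.1% fell. The sizes differed widely: the fitted log2 change over 4 days was 3.48 ± 0.40 (SE, n = 5 pools) for Sst and 0.54 ± 0.10 for the smaller of the Ppy changes. Between stages, e16.5 against e12.5 was called for 1 rising (Sst) and 1 falling probe set (Gcg on chip A) at an adjusted p under 0.05 and at least 2-fold. The background of that comparison was 1.44% rising and 3.03% falling. At an adjusted p under 0.05 alone all 6 probe sets passed, as did 49.8% of all probe sets.

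**Figure D1:**
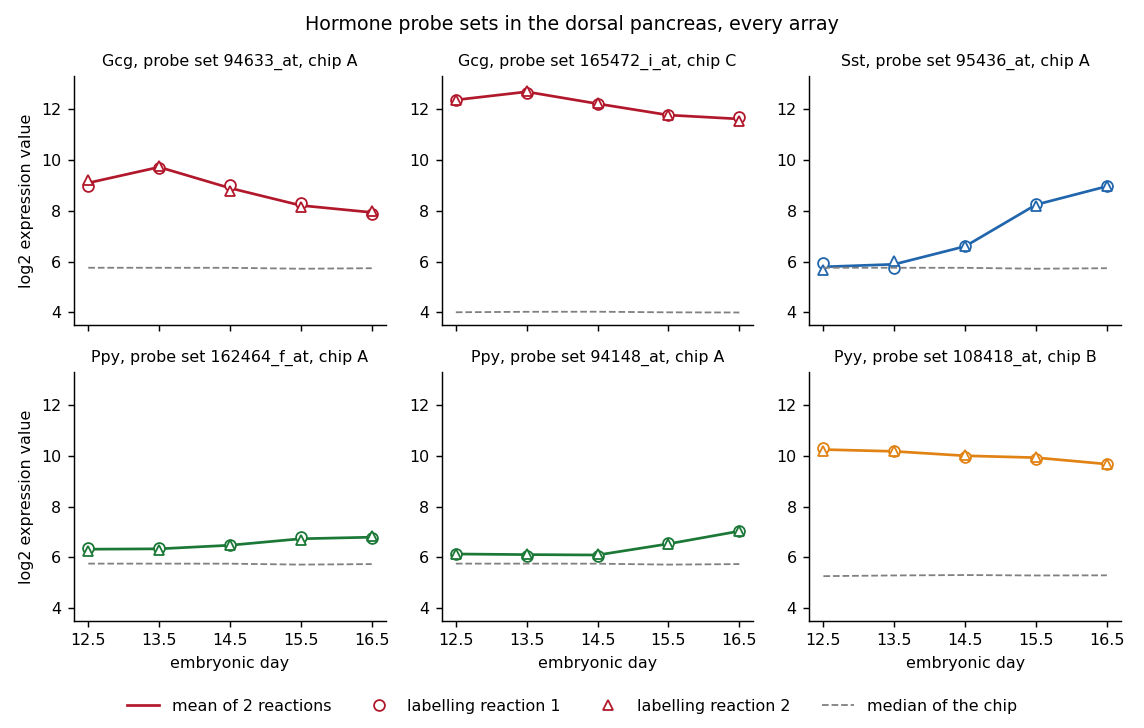
Log2 expression value (vertical axis) against embryonic day (horizontal axis) for the 6 probe sets, with both labelling reactions as separate symbols, their mean as a line and the median of the chip as a dashed line. Gcg peaks at e13.5 on both chips, Sst leaves the chip median after e13.5, the Ppy probe sets rise late and Pyy declines by a small amount from a high level.

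Glucagon transcripts were high at the start, highest at e13.5 and lowest at e16.5 on both probe sets. On chip A the values of reactions 1 and 2 were 8.98 and 9.22 at e12.5, 9.68 and 9.77 at e13.5, 9.00 and 8.79 at e14.5, 8.29 and 8.13 at e15.5, and 7.89 and 7.98 at e16.5. Each array at e13.5 was above every other array, and each array at e15.5 and e16.5 was below every array of the earlier stages. The arrays of e12.5 and e14.5 overlapped. On chip C they were 12.36 and 12.38 at e12.5, 12.64 and 12.74 at e13.5, 12.21 and 12.23 at e14.5, 11.76 and 11.79 at e15.5, and 11.69 and 11.55 at e16.5. Here the stages did not overlap at all. The chips carry the same labelled RNA, so they repeat the measurement with other probes and not with other embryos.

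The fitted change was -1.53 ± 0.38 on chip A (limma adjusted p = 0.0307) and -0.97 ± 0.20 on chip C (adjusted p = 0.0138). A straight line leaves out the maximum at e13.5. Counted from e13.5 the mean at e16.5 was 3.45-fold lower on chip A (-1.79) and 2.10-fold lower on chip C (-1.07), a contrast picked for its maximum and not tested. The chip A change was called for e16.5 against e12.5 (-1.16 ± 0.10, a 2.24-fold fall, limma adjusted p = 1.45e-06), whereas that of chip C (-0.75 ± 0.07, 1.68-fold, adjusted p = 1.85e-06) did not reach 2-fold. The call on chip A was lost with cyclic loess, at -0.98. The fitted changes no longer passed without the e16.5 pool (-1.40, adjusted p = 0.179 on chip A and -0.90, adjusted p = 0.0975 on chip C), and on chip A without the e15.5 pool (-1.43, adjusted p = 0.0724).

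The probe set of chip C was the brightest of its chip at e12.5 and e13.5 and ranked 2, 4 and 5 of 11868 at the later stages, where signal can saturate. It is of a design with an incomplete probe set. On chip A the Gcg probe set ranked between 330 and 1613 of 12422, away from the top, and its changes were the larger ones at every step in the values as deposited. With quantile normalization again the order turned: chip C then had a trend of -1.70 and -1.56 for e16.5 against e12.5, past 2-fold, and chip A had -1.51 and -1.11. Whether the smaller change on chip C in the deposited values comes from its brightness was not tested.

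Somatostatin transcripts stayed near the chip median until e13.5 and at e16.5 had risen 9.03-fold over e12.5, the largest change of the 4 genes. The arrays read 5.93 and 5.65 at e12.5, 5.76 and 6.02 at e13.5, 6.60 and 6.60 at e14.5, 8.29 and 8.20 at e15.5, and 8.96 and 8.97 at e16.5. The arrays of e12.5 and e13.5 overlapped, and each later stage lay above all earlier ones. The chip median was 5.75 at e12.5, so the early level is not shown to be above background. For e16.5 against e12.5 the change was 3.17 ± 0.10 (limma adjusted p = 3.67e-10), and the stage trend had an adjusted p of 0.00254.

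The rise was not even over the days. Sst changed by 0.10 ± 0.10 from e12.5 to e13.5 (limma adjusted p = 0.639), by 0.71 ± 0.10 to e14.5, by 1.64 ± 0.10 to e15.5 and by 0.72 ± 0.10 to e16.5. Only the step from e14.5 to e15.5 was called among these steps, at 3.12-fold and an adjusted p of 1.50e-06. It was the 1 member probe set called in that comparison, where 0.294% of all probe sets were called as rising, and 5 of 6 passed on the adjusted p alone (10.7% of all probe sets). The steps before and after it had adjusted p-values of 0.00257 and 0.000443 and did not reach 2-fold.

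**Figure D2:**
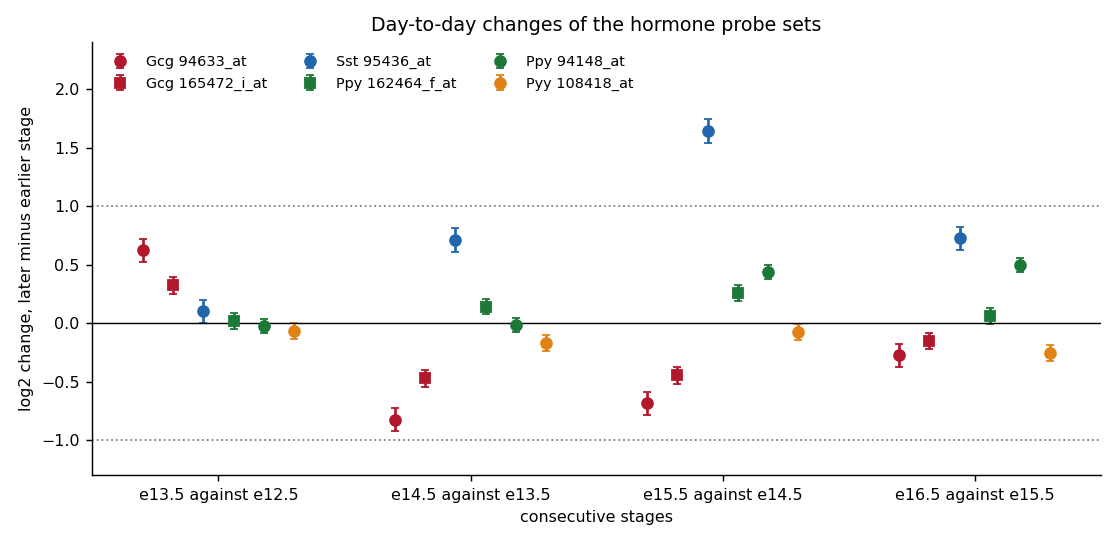
Log2 change between consecutive stages (vertical axis) for each step (horizontal axis) and probe set, with bars of 1 SE from the fit over the 10 arrays of a chip and dotted lines at a 2-fold change. The step of Sst from e14.5 to e15.5, at 1.64, is the only point past a dotted line. Gcg is above 0 in the earliest step and below 0 in all later ones on both chips.

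The other steps had no call: 0 of 6 probe sets for e13.5 against e12.5, for e14.5 against e13.5 and for e16.5 against e15.5, where limma called 0.128%, 0.131% and 0.33% of all probe sets in either direction. At an unadjusted p under 0.05 the counts were 2, 4 and 4, with 23.2%, 16.0% and 33.2% of all probe sets. At an adjusted p under 0.05 alone they were 2, 3 and 3, with 11.2%, 3.16% and 20.5% of all probe sets. Those for e13.5 against e12.5 were the probe sets of Gcg, at 0.62 ± 0.10 on chip A (adjusted p = 0.00197) and 0.32 ± 0.07 on chip C (adjusted p = 0.011). Neighbouring steps share a stage, so the high e13.5 pool enters both the upward and the downward step of Gcg. The downward steps of chip A were -0.83 ± 0.10 to e14.5, -0.69 ± 0.10 to e15.5 and -0.27 ± 0.10 to e16.5, and those of chip C were -0.47 ± 0.07, -0.45 ± 0.07 and -0.15 ± 0.07.

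Pancreatic polypeptide transcripts rose late, with measured changes under 2-fold. On the probe set with the suffix _at, the arrays read 6.13 and 6.13 at e12.5, 6.07 and 6.15 at e13.5, 6.06 and 6.13 at e14.5, 6.55 and 6.52 at e15.5, and 7.03 and 7.04 at e16.5. The arrays of the 3 earlier stages overlapped, close to the chip median of 5.75 and not shown to be above background, so the true fold may be larger than the measured one. Stages e15.5 and e16.5 each lay above all before. The change of e16.5 against e12.5 was 0.90 ± 0.06, or 1.87-fold (limma adjusted p = 1.83e-07), short of the 2-fold minimum, and the last steps gave 0.44 ± 0.06 and 0.50 ± 0.06. The fitted trend was 0.89 ± 0.22 (adjusted p = 0.0309). It missed the threshold when the pool of e16.5 was left out (0.47, adjusted p = 0.224), and likewise for the pool of e13.5 (0.86, adjusted p = 0.0808) or e15.5 (0.93, adjusted p = 0.0574).

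The other Ppy probe set has the suffix _f_at, a design whose probes can match a family of similar sequences. Its arrays read 6.37 and 6.27 at e12.5, 6.37 and 6.31 at e13.5, 6.47 and 6.48 at e14.5, 6.79 and 6.68 at e15.5, and 6.75 and 6.84 at e16.5. Stages e15.5 and e16.5 lay above the earlier ones and overlapped each other. Its fitted change was 0.54 ± 0.10 (limma adjusted p = 0.0133), and 0.55 without the e16.5 pool (adjusted p = 0.0627). The probe sets of Ppy thus differed in the last step, which was 0.06 ± 0.07 here and 0.50 ± 0.06 on the _at probe set, and a test of that difference was not run.

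Peptide YY transcripts were high and declined by a small amount. The arrays read 10.30 and 10.20 at e12.5, 10.18 and 10.18 at e13.5, 9.96 and 10.05 at e14.5, 9.90 and 9.97 at e15.5, and 9.68 and 9.68 at e16.5. Both arrays of e16.5 were the lowest and both of e12.5 the highest, while e14.5 and e15.5 overlapped. The fitted change was -0.56 ± 0.10 (limma adjusted p = 0.00694), and e16.5 against e12.5 gave -0.57 ± 0.07, or 1.49-fold (adjusted p = 5.21e-06), short of 2-fold. The size of the fitted fall depended on the scaling with cyclic loess, which gave -0.28 (limma adjusted p = 0.0753). With the values quantile-normalized again it was -0.51, close to the deposited values, at an adjusted p of 0.0542. Apart from scaling, it was -0.45 without the e16.5 pool (adjusted p = 0.0875). None of these passed. This probe set ranked between 8 and 27 of the 12411 on chip B.

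On chip A, where Gcg, Sst and Ppy share arrays, the change of one hormone could be set against that of another over the same 5 pools. The zero of such a difference has no meaning, since probes differ in brightness, and only its change over the stages is read. The fitted change of Ppy minus Sst over 4 days was -2.94 ± 0.50 (SE of the line, n = 5 pools) for the _f_at probe set of Ppy and -2.59 ± 0.40 for the _at probe set. Both had a two-sided exact permutation p of 0.0167 over the orders of the 5 stages, the smallest that 120 orders can give, and an adjusted p of 0.0417 over the 5 pairs compared. Sst minus Gcg had 5.01 ± 1.09 (exact permutation p = 0.0333, adjusted p = 0.0556). Ppy minus Gcg had 2.07 ± 0.63 (_f_at) and 2.42 ± 0.75 (_at, exact permutation p = 0.0667 and 0.05, adjusted p = 0.0667 and 0.0625), so the pairs with Gcg did not pass. In all 3 pairs with Gcg the difference dipped at e13.5, where Gcg was highest.

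**Figure D3:**
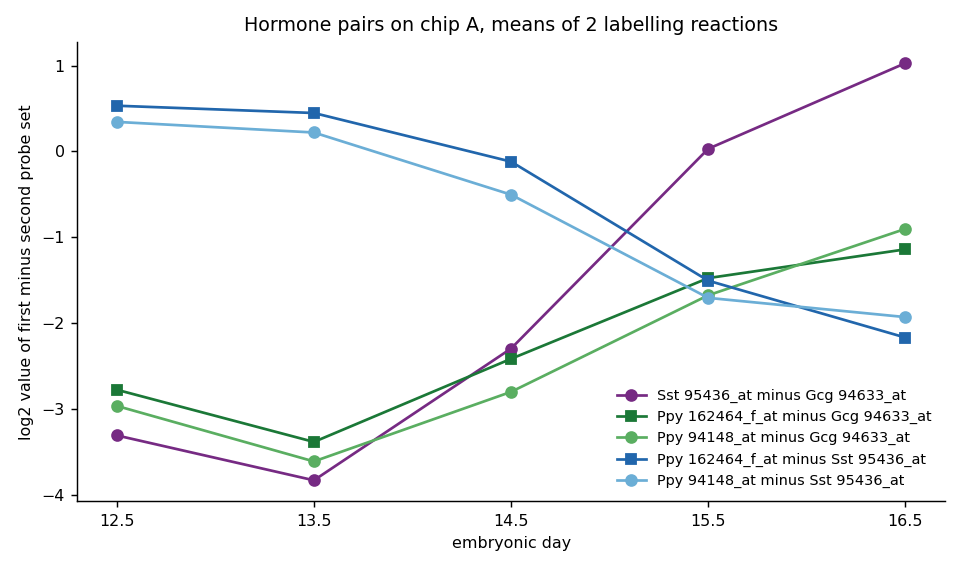
Difference in log2 value between hormone probe sets on chip A (vertical axis, mean of both labelling reactions) against embryonic day (horizontal axis). From the youngest to the oldest pool Sst minus Gcg moves from -3.31 to 1.03, and Ppy (_f_at) minus Sst moves from 0.53 to -2.17.

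Other peptide hormones made in the same endocrine lineage or by the gut followed several courses. Of 11 measured genes of that list, by 1 probe set per gene, 3 rose, none fell and 8 did not pass, with a median change of 0.15, where 11.9% of all genes rose and 17.0% fell with a median of 0.02. The risers were Ins2, Iapp and Npy. The insulin gene Ins2 had 7.53 ± 0.86 on an _f_at probe set, which can match similar sequences, and 0.85 ± 0.18 on its other probe set. Iapp, which encodes islet amyloid polypeptide, had 4.02 ± 0.28. Npy, the neuropeptide Y gene of the PP family, had 1.49 ± 0.24 (limma adjusted p = 0.00788). Npy went from 6.47 at e12.5 to 7.83 at e15.5 and 7.68 at e16.5, upward where Pyy went down. The ghrelin gene Ghrl was highest at e15.5 as well, at 8.35 against 7.39 at e12.5, with no passing trend (0.66 ± 0.25, adjusted p = 0.105), and its other probe set had 0.11 ± 0.10.

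The cholecystokinin gene Cck was, like Gcg, highest at e13.5 and lowest at e16.5, and its trend did not pass (-1.26 ± 0.59, limma adjusted p = 0.162). Its means were 6.60, 7.70, 7.23, 6.22 and 5.76 from e12.5 to e16.5, and limma called its steps to e13.5 (1.09 ± 0.07, adjusted p = 5.56e-06) and from e14.5 to e15.5 (adjusted p = 4.81e-06). The gastrin gene Gast was at 6.23 at e12.5, 6.93 at both e13.5 and e14.5, and 6.50 at e16.5. On an _f_at probe set, the glucagon relative Gip was at 7.30 at e12.5, 7.63 at e13.5, 7.19 at e14.5 and 6.92 at e16.5. Neither had a passing trend, at 0.13 ± 0.30 and -0.55 ± 0.17 (adjusted p = 0.788 and 0.0506), and the other probe set of Gip had -0.08 ± 0.17. The somatostatin relative Cort lay below its chip median at each stage.

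**Figure D4:**
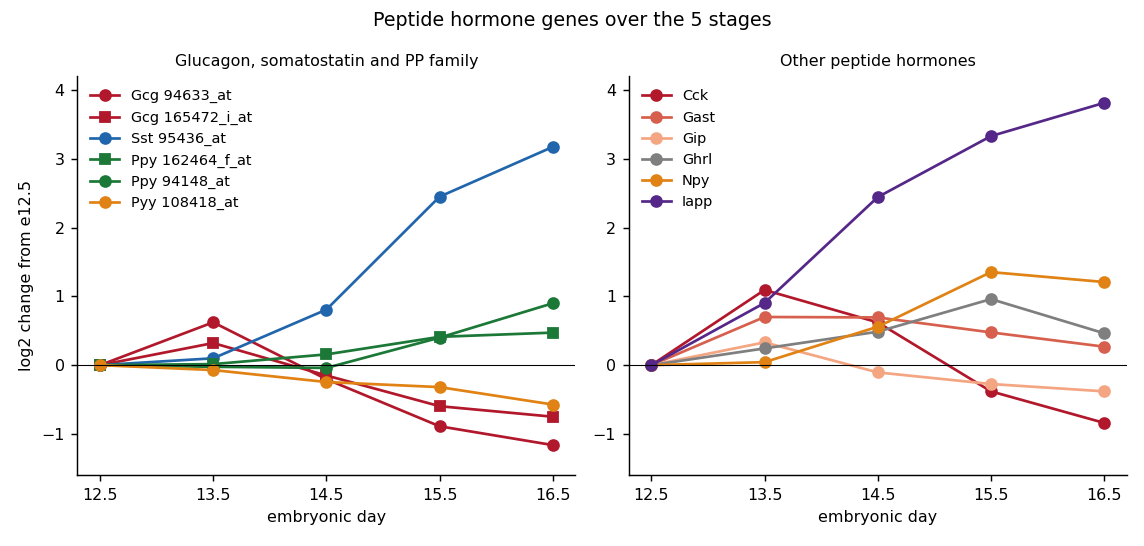
Log2 change from e12.5 (vertical axis) against embryonic day (horizontal axis) for the 6 probe sets (left) and for 6 other peptide hormone genes, 1 probe set each (right), as means of 2 labelling reactions. At e13.5 Cck is up by 1.09 and Gcg by 0.62 and 0.32, and at e16.5 Sst is up by 3.17.

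Of 12 measured receptor genes of these hormones, Ramp2 included, 1 rose and none fell, where 11.9% of all genes rose and 17.0% fell. Of 5 somatostatin receptor genes none passed, with fitted changes from -0.08 ± 0.09 (Sstr5) to 0.24 ± 0.09 (Sstr2, limma adjusted p = 0.0879). Sstr1 and Sstr2 lay below the chip median at each stage, while Sstr3 (6.32 to 6.55), Sstr4 (7.24 to 7.36) and Sstr5 (6.75 to 6.95) lay above it on their brightest probe sets. The other probe sets of Sstr4 (3.23 to 3.42) and Sstr5 (4.49 to 4.69) lay below the median of their chips at each stage. The glucagon receptor gene Gcgr was below the chip median throughout and did not pass (0.06 ± 0.09, adjusted p = 0.68), and Glp1r was not analysed here. All 5 receptor genes of the neuropeptide Y and PP family lay below the chip median at each stage. Among them Npy1r rose by 0.35 ± 0.09 (adjusted p = 0.0358) on 1 of its 3 probe sets, the other two giving 0.00 ± 0.08 and 0.05 ± 0.08. Npy4r, the receptor that binds pancreatic polypeptide, did not pass (0.12 ± 0.11).

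Of 8 genes of the prohormone processing list, which also holds peptidases that break down finished peptides, such as Mme, 2 rose and none fell. Among all genes 11.9% rose and 17.0% fell. The convertase gene Pcsk1 rose by 0.94 ± 0.09 (limma adjusted p = 0.00165), with means of 4.50 (e12.5) and 5.47 (e16.5), below the chip median at each stage. Mme, which encodes the peptidase neprilysin, rose by 0.47 ± 0.14, also below it, on its brightest probe set, and 3 of its 5 probe sets did not pass. Cpe went from 7.58 at e12.5 to 8.43 at e13.5 and stayed between 8.37 and 8.50 after that, and its trend did not pass (0.68 ± 0.29, adjusted p = 0.135), while 1 of its 3 dimmer probe sets did (0.32 ± 0.08). Scg5 (0.07 ± 0.13) and Pam (0.09 ± 0.11), which amidates peptide ends, did not pass, and Pcsk2 was not analysed here.

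**Figure D5:**
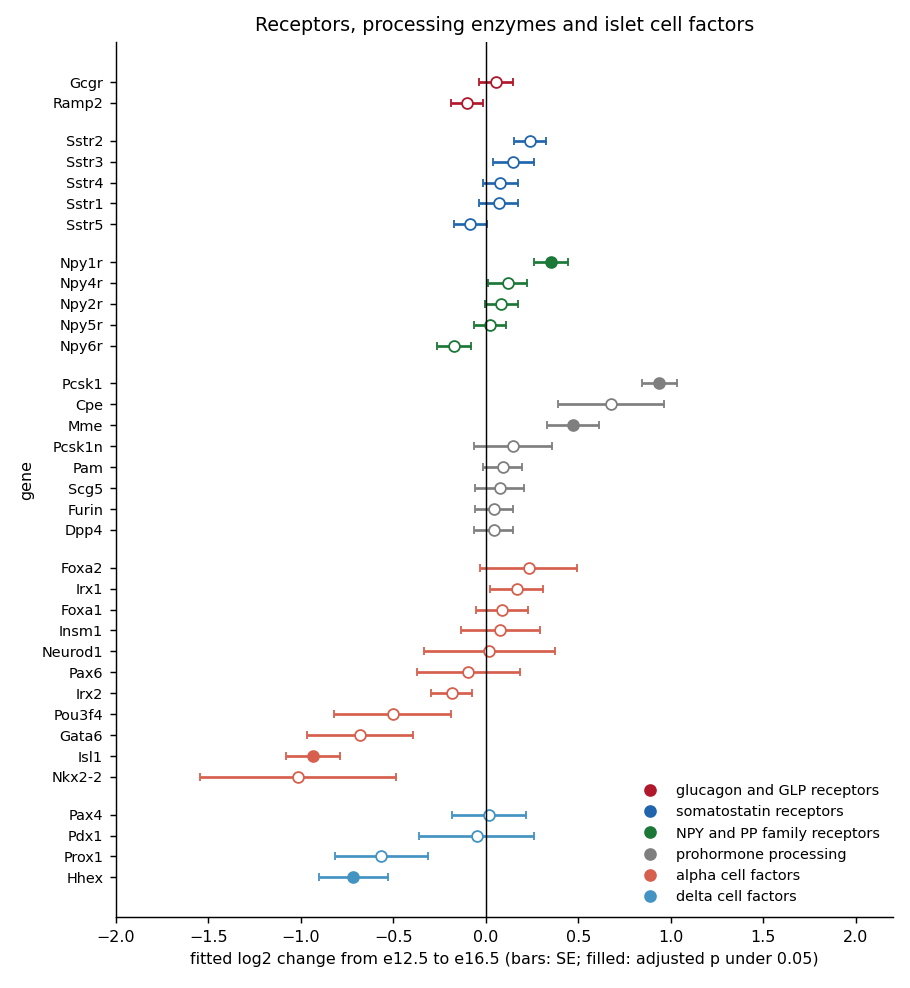
Fitted log2 change from e12.5 to e16.5 (horizontal axis, bars of 1 SE, n = 5 pools) for receptor, processing and islet cell factor genes (vertical axis), coloured by list, with filled symbols for an adjusted p under 0.05. The filled symbols are Npy1r, Pcsk1 and Mme on the right and Isl1 and Hhex on the left.

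Transcription factor genes of alpha cells gave 0 rises and 1 fall among 11, with a median change of -0.10. Among all genes 11.9% rose and 17.0% fell. Isl1, needed for islet cell formation, fell by 0.94 ± 0.15 (limma adjusted p = 0.00686) on its probe set of chip A and had -0.07 ± 0.10 on that of chip C. The alpha cell factor Pou3f4 was at 4.98, 5.50, 5.44, 4.95 and 4.62 over the stages, below the chip median, with no passing trend (-0.50 ± 0.32). Pax6 (-0.10 ± 0.28), Irx1 (0.17 ± 0.14) and Irx2 (-0.19 ± 0.11) did not pass either. In 8 of the 11 genes the highest stage mean was at e13.5 or e14.5, among them Nkx2-2 (8.33 at e14.5 and 6.65 at e16.5) and Neurod1, as it was in 23.7% of all genes. The same held for 4 of 4 delta cell factors, 5 of 8 processing genes and 5 of 9 other alpha and delta cell genes. It was thus not limited to alpha cell factors. Any margin counted, however small: Cpe was included with 8.50 at e14.5 against 8.46 at e16.5. These counts were made after the values were seen.

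Among 4 delta cell factor genes 1 fell and none rose, where 11.9% of all genes rose and 17.0% fell. Hhex, a factor that delta cells need, fell by 0.72 ± 0.19 (limma adjusted p = 0.0365), from 6.77 at e13.5 to 5.90 at e16.5, while Sst rose. Pax4, which acts in beta and delta cell formation, did not pass (0.02 ± 0.20). Of 9 other genes known from alpha or delta cells, 1 rose and 6 fell, with a median change of -1.09 against 0.02 for all genes. The largest falls were in Sfrp1 (-2.39 ± 0.28), Peg3 (-1.39 ± 0.19) and Cltrn (-1.36 ± 0.15), of which Sfrp1 and Peg3 are also made outside the islet. The part of cells outside the islet in the falls of this list was not tested. Slc38a5, an amino acid transporter of alpha cells, fell by 1.17 ± 0.28 (adjusted p = 0.0276), from 9.77 at e13.5 to 8.73 at e16.5. Tm4sf4 rose by 1.23 ± 0.12, and Ttr, which alpha cells also make, had -0.60 ± 0.19 (adjusted p = 0.067).

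The probe sets with the most similar courses were sought on the chip of each gene's brightest probe set, by the root mean square difference of the 5 stage means after centring. For Sst, among 10829 named probe sets of chip A, they were Ang (0.14 in log2 units), Edem1 (0.16) and Reg1 (0.18). Ang, a ribonuclease gene, was on an _f_at probe set. Edem1, of protein degradation from the endoplasmic reticulum, lay below the chip median up to and including e15.5 (5.38). Reg1 encodes a secreted protein of acinar cells. For Gcg the search used its chip C probe set, whose signal can saturate. Among 7716 on chip C, the closest were ccdc198 (0.10), Rbm5 (0.11), below the chip median at each stage, and Pik3r1 (0.11). Their highest mean at e13.5, as in Gcg, goes with the choice by course. Ppy (the _f_at probe set) was closest to Fam98a (0.0076), Odc1 (0.015) and Tap2 (0.026), and Pyy, among 10580 on chip B, to Nfrkb (0.017), Usp37 (0.018) and Itprip (0.021). With 5 points and this many probe sets, a small and smooth course such as that of Ppy or Pyy has close neighbours of many kinds.

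Markers of other cells in or near the bud moved over the same stages, where 11.9% of all genes rose and 17.0% fell. All 10 acinar markers rose, with a mean log2 level of 6.84 in the youngest and 11.98 in the oldest pool, alongside the rise of Sst. Of 12 neuron and neural crest markers, 1 rose and 5 fell, such as Gap43 (-2.04 ± 0.16), and their mean level went from 6.26 to 5.82, alongside the falls of Gcg and Pyy. Mesenchyme markers had 1 rise and 4 falls of 10 (mean level 8.24 to 7.54). Red cell markers did not move as a set, with 2 rises and 3 falls of 7 (mean level 9.23 to 7.78). Falls were seen for Hbb-bh1 (-1.35 ± 0.21), Hba-x (-5.35 ± 0.42) and Hbb-y (-5.52 ± 0.68). The larger of the rises was that of Alas2 (1.77 ± 0.29). The mean of this list is therefore not read as the amount of red cells. The part of any of these cell types in the hormone changes was not tested.

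Stomach and gut, which also make Sst, Gcg and Pyy, were checked with 19 measured markers, Cck, Gast and Gip among them, of which 3 rose and none fell by the brightest probe set of each. These were Vil1 (2.41 ± 0.31), Tff2 (2.10 ± 0.60, limma adjusted p = 0.0471) and Gkn1 (0.37 ± 0.12), whose other probe set did not pass. On dimmer probe sets 2 genes fell. Barx1, a factor of stomach mesenchyme, had -1.74 ± 0.09 on its other probe set, 6.94 at e12.5 and 5.21 at e16.5, against -0.29 ± 0.14 on the one counted, a family design. Tff1 had -0.30 ± 0.08 on its other probe set (limma adjusted p = 0.0384) and -0.19 ± 0.10 on the one counted. Among all genes, by the brightest probe set, 11.9% rose and 17.0% fell. The mean level of the gut list was 5.16 at e12.5 and 5.40 at e16.5. Among the intestinal markers, Cdx1, Cdx2, Fabp1 and Fabp2 were below the chip median at each stage, as were 8 of the 19 in all. Not every gut marker was this dim. Muc2 (5.39 to 5.80) and Tff3 (6.64 to 6.97) lay above the median of their chips at each stage, although the dimmer probe set of Tff3 (3.87 to 4.38) did not. Vil1 was below it up to e15.5 (5.04) and near it in the oldest pool (5.83). Tff2 went from 3.77 at e12.5 to 4.29 at e15.5 and 6.13 at e16.5. The step of Vil1 from e14.5 to e15.5 was called (1.11 ± 0.14, limma adjusted p = 0.000446), as was that of Sst. The part of stomach or gut tissue in the hormone changes was not tested.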

How the data were processed

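RNA of dorsal pancreas pools at 5 stages was measured on 3 chips, and the deposited values are log2 levels, 1 for each probe set on each array. The authors made them with RMA, per the submitters' processing notes, a method of background correction, quantile normalization and probe summary that removes differences in total RNA per cell and can compress the brightest probe sets. The software was not stated in the sources used here, and the log base was inferred from the values. Names come from the platform annotation at GEO: 29131 of 36701 had 1 symbol, 724 several and 6846 were unnamed here. Promoter windows are those of RefSeq for GRCm38.p6.

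Tests used limma 3.58.1 in R 4.3.3. The stage trend is a straight line in embryonic day through 5 pool means, each the mean of 2 reactions. Changes are the slope times 4 days, and p-values of all chips were adjusted together with a threshold of 0.05. For stage contrasts, stage entered as a factor in a fit of each chip's 10 arrays, so their SE is that of labelling and the test compares pools. A call also needed a 2-fold change. In the gene lists the probe set of highest mean stands for a gene. The code was tested on simulated data. The numbers of the labelling reactions mark no shared batch in the labels and did not pair the arrays, and the number of arrays limits the precision.

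The rule for the members uses symbols alone, but the members and gene lists were chosen with earlier results of these data known. Besides the members, the genes named are a set of receptor, processing and cell factor genes, up to 4 genes per list with the largest passing change, and the 3 probe sets closest in course to each member; not all are given, and Gip, Cort, Nkx2-2, Neurod1, Ttr and the tissue markers without a passing change were named after their values were seen. Alternatives were other scalings, a filter on dim probe sets, another variance prior, adjustment within chips, other treatments of the reactions, other fold minimums, and leaving out each array and each pool.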

Additional observations from a re-analysis of the deposited data

How the results depend on the processing

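Every member kept its direction in the stage trend and in e16.5 against e12.5 under all alternatives run. Leaving out 1 array changed none of these calls. The fitted change then ran from -1.63 to -1.44 for Gcg on chip A and from -1.02 to -0.91 on chip C, from 3.37 to 3.59 for Sst, from 0.50 to 0.58 and from 0.87 to 0.91 for Ppy, and from -0.60 to -0.52 for Pyy. With 1 array left out, the lone array of its stage is assumed to vary like the others. Without the e16.5 pool, Gcg (-1.40 and -0.90), both Ppy probe sets (0.55 and 0.47) and Pyy (-0.45) did not pass. Nor did Gcg on chip A without the e15.5 pool (-1.43), or the _at probe set of Ppy when the pool of e13.5 (0.86) or of e15.5 (0.93) was left out. Leaving out a pool leaves 4 points for the line. Pyy did not pass with quantile normalization again (-0.51) or cyclic loess (-0.28). For e16.5 against e12.5, Gcg on chip A was at -0.98 with cyclic loess, under 2-fold, and Gcg on chip C at -1.56 with quantile normalization again, where its trend was -1.70. That setting gives a probe set the value of its rank, and this one ranked 1 at e12.5 and 5 at e16.5. For the same reason its step from e12.5 to e13.5, where it ranked 1 both times, was 0 there.

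The count of rising probe sets in the stage trend, 3886, was 2145 with only probe sets above the chip median, 1874, 2207 and 1275 without the e12.5, e13.5 and e16.5 pools, and 525 with a 2-fold minimum. Of falling probe sets there were 4825, and 2278 when the pool of e16.5 was left out or 981 with a 2-fold minimum. Over 10 arrays taken as independent they were 7957 and 7538, and with the replicate number as a block 7580 and 7313. In that fit with the replicate block the change of Sst was 3.48 and that of Gcg on chip A -1.53, and no call of a member changed. Deviations of same-numbered arrays correlated between -0.18 and 0.11, so the numbers do not pair the arrays. For e16.5 against e12.5, 9687 rose and 8594 fell with no fold minimum, and 1598 and 3303 with a 1.5-fold minimum, against 527 and 1111. Without the e12.5 pool the differences between hormones were 6.76 (Sst and Gcg), 3.07 and 3.70 (Ppy and Gcg), and -3.69 and -3.06 (Ppy and Sst). With 4 pools their exact test cannot pass.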
